A study of Drosophila melanogaster with 18 samples.

Results

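Ovaries of emerin G/PK females were compared with ovaries of emerin G/PI females, the 2 emerin null allele combinations of a series on the Drosophila nuclear lamina. The libraries were chosen by their genotype label, 2 of G/PK and 2 of G/PI among 18 libraries, and every gene with at least 10 counts in total over the 18 libraries was tested, which left 12762 of 14237 genes. Each library held poly(A)-selected RNA from about 100 pairs of ovaries of newly eclosed females, and the study describes the libraries of a genotype as independent RNA isolates. The 3 alleles are mutations of otefin (Ote), which encodes a fly emerin. The G allele carries a piggyBac transposon insertion, PK a premature stop codon and PI an amino acid substitution, all in a yw background, so both groups share the G chromosome and differ in the chromosome opposite it. Levels are also given for 3 chk2 emerin libraries, which carry G/PK together with mutations of the checkpoint kinase gene lok, and for 7 wild-type libraries from the reference strains CS (4, which is 1 more than the methods list) and yw (3). Gene lists were also taken from 2 libraries with germline knockdown of baf by a short hairpin RNA (baf GLKD) and 2 of its nos>gal4VP16 driver strain alone (nosgal4). The flies of all groups except baf GLKD were raised at room temperature by their labels, whereas the study's methods give a single stated temperature for every cross.

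Emerin is a LEM-domain protein of the inner nuclear membrane that binds barrier-to-autointegration factor and the lamins. In the fly ovary its loss deforms the lamina of germline stem cells, activates the Chk2 checkpoint kinase and blocks germ cell differentiation. From earlier work, the study cites a lower median share of germaria without germline stem cells in G/PK than in G/PI. How that share relates to the RNA levels given here was not tested. Germ cells that do differentiate pass through a dividing cyst stage and early meiosis in the germarium, and the growing egg chambers then load the oocyte with maternal RNAs. In bulk ovary RNA, fewer cells of a type and less RNA per cell cannot be told apart.

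The 2 G/PK libraries held 18496391 and 18138657 counts and the G/PI libraries 24764157 and 18644028, within a range of 18138657 to 28372959 over the series. The G/PK libraries lay close together, with a chi-square per degree of freedom of 21.0 between them, against 102 between the G/PI libraries, so none was a repeat deposit of another. On the first principal component of the 500 most variable genes, which took 65.4% of the variance, the G/PK libraries scored 43.6 and 46.0 and the G/PI libraries 32.0 and 41.2. On this component G/PI replicate 1 stood apart from the other 3 emerin libraries. On the second component, with 10.2% of the variance, the G/PK libraries scored 10.9 and 9.35 and the G/PI libraries -5.95 and -10.5. There the 2 genotypes lay apart, but libraries of 1 genotype could lie as far from each other. On this component the nosgal4 libraries scored 9.51 and -7.29, and the CS libraries ranged from -14.2 to 6.02. What this component follows was not tested. G/PI replicate 1 was also the only emerin library among 7 whose transcript table totals 7.4 to 18.9 times less than the gene table. That split partly follows genotype, so results are given with and without G/PI replicate 1.

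Ote, the mutated gene, was measured first (2R, 18275607 to 18277177, BDGP6.54 annotation). Its level was 17.9 and 11.7 CPM (normalised counts per 1000000 counts) in the G/PK libraries, against 59.0 and 32.7 CPM in the G/PI libraries. The groups did not overlap, and the log2 fold change of G/PK over G/PI was -1.63 (SE 0.28, adjusted p = 0.0128). In the chk2 emerin ovaries, which carry the same G/PK alleles, Ote lay at 21.6 to 23.1 CPM, against 64.8 to 85.3 CPM in wild type. Ote RNA was thus low in both genotypes with the premature stop allele, and it was lower than in wild type in G/PI as well (log2 fold change -0.73, adjusted p = 0.0158). Without G/PI replicate 1 the G/PK over G/PI value was -1.14 (adjusted p = 0.249).

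Of 12762 genes, 89 differed between G/PK and G/PI at an adjusted p under 0.05, which is 0.697% of those tested. In G/PK ovaries 78 genes were lower (0.611%) and 11 were higher (0.0862%). The genes that were lower included genes known from the oocyte and early embryo, such as osk, dhd, mtrm and exu, and the 78 had a median log2 fold change of -1.97 against -0.04 over all genes. The genes that were higher included bgcn, a partner of the differentiation factor Bam, and 3 genes of digestive proteases. In 70 of the 78 genes the difference exceeded 2-fold, and it exceeded 4-fold in 39. At an unadjusted p under 0.05, 819 genes were lower (6.42%) and 354 higher (2.77%). Within the second set of libraries, where G/PI replicate 2 is the only G/PI library, 3 genes were lower (rpk, Cyp6a19 and sosie) and 0 higher by edgeR (328 and 309 at an unadjusted p under 0.05), while the first set holds no G/PK library.

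**Figure D1:**
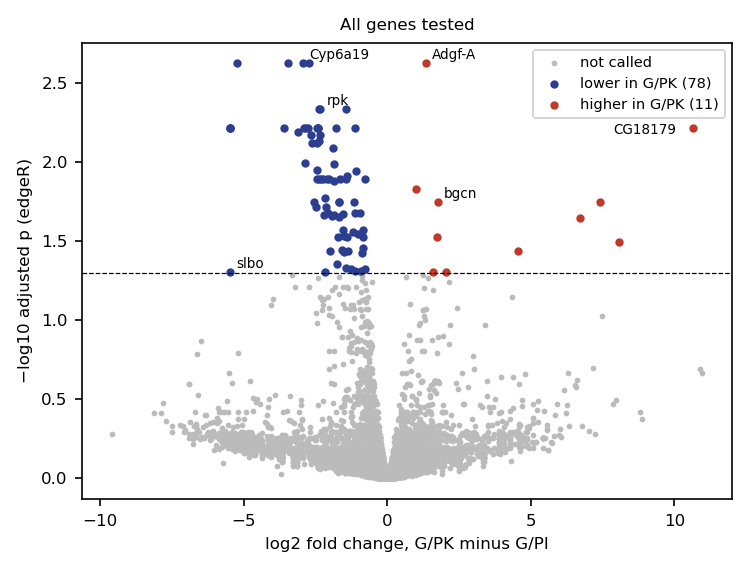
Log2 fold change of G/PK over G/PI (x axis) against the negative log10 of the adjusted p (y axis) for the 12762 genes tested, with genes lower in G/PK in blue, genes higher in red and the 0.05 threshold dashed. The 78 genes on the lower side far outnumber the 11 on the higher side.

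The lower genes were examined by function. osk encodes the organiser of germ plasm assembly at the posterior of the oocyte. Its level was 97.6 and 68.3 CPM in G/PK, against 823 and 218.4 CPM in G/PI (log2 fold change -2.65, SE 0.41, adjusted p = 0.0067). Both G/PK libraries lay below both G/PI libraries, and all 4 lay below the wild-type range of 1376 to 2245 CPM. dhd encodes a thioredoxin required at the transition from egg to embryo. It was at 55.2 and 32.0 CPM in G/PK, against 523 and 223 CPM in G/PI (log2 fold change -3.10, SE 0.47, adjusted p = 0.00641). mtrm, whose product restrains Polo kinase in the meiotic oocyte, was at 6.06 and 3.04 CPM in G/PK, against 44.0 and 20.1 CPM in G/PI (log2 fold change -2.81, SE 0.43, adjusted p = 0.00605). alphaTub67C, the maternal alpha-tubulin, was at 25.5 and 15.8 CPM in G/PK, against 168 and 56.6 CPM in G/PI (log2 fold change -2.45, adjusted p = 0.00762). osk was still called without G/PI replicate 1 (-1.40, adjusted p = 0.0235), while dhd, mtrm and alphaTub67C, at -2.36, -2.14 and -1.46, were not (adjusted p = 0.0806 each). In each of these genes G/PI replicate 1 was the highest emerin library and G/PK replicate 2 the lowest.

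Of 19 listed genes of oocyte RNA localisation and translational control, 4 were lower in G/PK (osk, exu, swa and cup), or 21.1% beside 0.611% of all genes, and 0 were higher by edgeR, by DESeq2 or at an unadjusted p under 0.05. exu and swa act in the localisation of bicoid RNA to the anterior of the oocyte. exu was at 18.6 and 9.90 CPM in G/PK, against 102 and 40.7 CPM in G/PI, and swa was at 12.9 and 5.82 CPM in G/PK, against 71.6 and 25.0 CPM in G/PI. cup binds eIF4E and represses osk translation, and its log2 fold change was -1.40 (adjusted p = 0.0297). The values without G/PI replicate 1 were -1.51 for exu, -1.42 for swa and -0.69 for cup, and none of these 3 was called. BicC and me31B, which also act in translational repression, had log2 fold changes of -2.48 and -0.98. They did not pass the test by edgeR (adjusted p = 0.0901 and 0.0764), while DESeq2 called both lower. The list was uneven. grk, BicD, egl and stau, which act in oocyte polarity and RNA transport, had log2 fold changes of -0.15, -0.16, -0.10 and 0.18, none past the test, and the median over the 19 genes was -0.33, or -0.09 without G/PI replicate 1.

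Of 18 tested genes of germ cell differentiation, 4 were lower in G/PK (22.2%, background 0.611%) and 1 was higher (5.56%, background 0.0862%). bru1 encodes an RNA-binding repressor of osk and other cyst RNAs. It was at 98.2 and 72.1 CPM in G/PK, against 634 and 132 CPM in G/PI (log2 fold change -2.17, adjusted p = 0.0496), but its value without G/PI replicate 1 was -0.63 (adjusted p = 1.0). otu, a deubiquitinase gene needed for cyst formation, was at 19.8 and 15.2 CPM in G/PK, against 76.0 and 37.6 CPM in G/PI (log2 fold change -1.70, adjusted p = 0.0178). CycB, a mitotic cyclin, and zpg, a germ cell gap junction protein, had log2 fold changes of -1.55 and -1.52 (adjusted p = 0.0267 and 0.0293). None of the 4 was called without G/PI replicate 1, when the values were -1.10 for otu, -0.75 for CycB and -0.81 for zpg. orb, a translational regulator of the early oocyte, was at 62.4 and 49.9 CPM in G/PK, against 229 and 80.0 CPM in G/PI. bam, which drives cystoblast differentiation, was at 3.87 and 1.10 CPM in G/PK, against 9.74 and 4.62 CPM in G/PI. Neither orb nor bam passed the test by edgeR (adjusted p = 0.0834 and 0.19), while DESeq2 called both lower. vas, stwl and piwi, which are used in germ cells from the stem cell onwards, had log2 fold changes of -0.30, -0.08 and -0.05, none past the test. The median over the 18 genes was -0.31, and 0.11 without G/PI replicate 1.

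**Figure D2:**
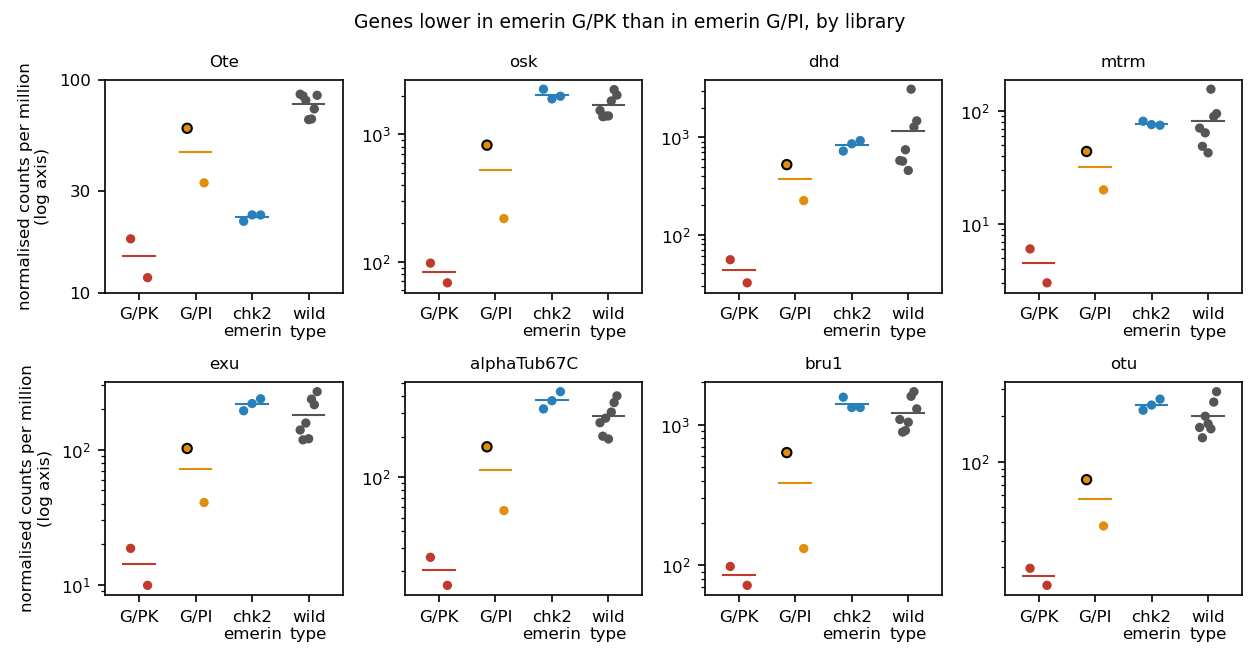
CPM on log axes for Ote and 7 germline genes lower in G/PK, by library, with the mean of each group as a line. The 2 G/PK libraries lie below both G/PI libraries in every panel. G/PI replicate 1 (black outline) is the higher of the G/PI pair, and the 3 chk2 emerin libraries lie within or just above the wild-type range except for Ote, where they lie below it.

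Among the remaining lower genes were others of the late oocyte and early embryo, named here after their values were seen. wisp, a cytoplasmic poly(A) polymerase, gnu, an activator of the Pan Gu kinase, pgc, a repressor of transcription in pole cells, Mos, an oocyte activator of the MAP kinase pathway, and smg, a translational repressor of the embryo, had log2 fold changes of -2.44, -1.87, -2.17, -1.85 and -0.94. The cell cycle genes CycA and gwl had values of -1.27 and -1.35 (adjusted p = 0.0475 and 0.0363). RpS5b, the germline paralog of a ribosomal protein, was at 244 and 172 CPM in G/PK, against 1297 and 371 CPM in G/PI (log2 fold change -2.0, adjusted p = 0.0363). The value of RpS5b without G/PI replicate 1 was -0.83, and it was not called (adjusted p = 0.795), nor were wisp, gnu, pgc, Mos, smg, CycA and gwl, at -0.65 to -1.75. rpk, an ovarian sodium channel subunit of the DEG/ENaC family, was at 8.09 and 7.07 CPM in G/PK, against 56.7 and 20.1 CPM in G/PI (log2 fold change -2.34, adjusted p = 0.00461), and it was also called without G/PI replicate 1 (-1.41, adjusted p = 0.00207). Among called genes with at least 100 normalised counts, the lowest fold changes also included those of APC7, yin, Iris, CG11674 and CG31262, at -2.46 to -2.87. APC7 encodes a subunit of the anaphase-promoting complex. Of these 5 genes, yin and CG31262 kept values of -1.54 and -2.25 without G/PI replicate 1 and stayed among the genes called.

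Genes of small-molecule metabolism were also among the lower ones. Cyp6a19, a cytochrome P450 gene, was at 4.07 and 2.57 CPM in G/PK, against 32.1 and 18.7 CPM in G/PI (log2 fold change -2.93, SE 0.35, adjusted p = 0.00237). It was also called without G/PI replicate 1 (-2.49, adjusted p = 0.0235). GstE14, a glutathione transferase that acts in ecdysteroid synthesis, was at 1.69 and 1.31 CPM in G/PK, against 11.2 and 4.88 CPM in G/PI (log2 fold change -2.42, adjusted p = 0.00605). Its value without G/PI replicate 1 was -1.70, and it was not called (adjusted p = 0.0806). By edgeR, 1 of 76 cytochrome P450 genes (1.32%) and 1 of 35 glutathione transferase genes (2.86%) were lower, beside 0.611% of all genes, and DESeq2 also called Cyp6a22 lower. The median of the cytochrome P450 genes was 0.00, and that of the glutathione transferases was 0.24, or 0.07 without G/PI replicate 1 and 0.42 without G/PI replicate 2.

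The 78 lower genes were then set against wild type. Relative to the mean of CS and yw, 77 of them were lower in G/PK (background 25.2%, and 52.1% in either direction) and 66 were lower in G/PI (background 22.1%, and 48.7% in either direction), while 2 were higher in G/PI, slbo and Fuca. Their median log2 level relative to wild type was -2.81 and -3.26 in the G/PK libraries, and -0.90 and -2.0 in the G/PI libraries. In 59 of the 78 genes all 4 emerin libraries lay below the lowest wild-type library. G/PI replicate 1 lay within or above the wild-type range in 19 genes, dhd and mtrm among them, and G/PI replicate 2 in 4. The genes were chosen for lower levels in G/PK than in G/PI. That choice favours levels below wild type in G/PK, so the count of 77 is no independent result. For the same reason a level near or above wild type in another group lies nearer to G/PI by construction. The chk2 emerin level was nearer to G/PK in 5 of the 78 genes, Ote, Fuca, CR43211, CR43213 and CR43216.

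**Figure D3:**
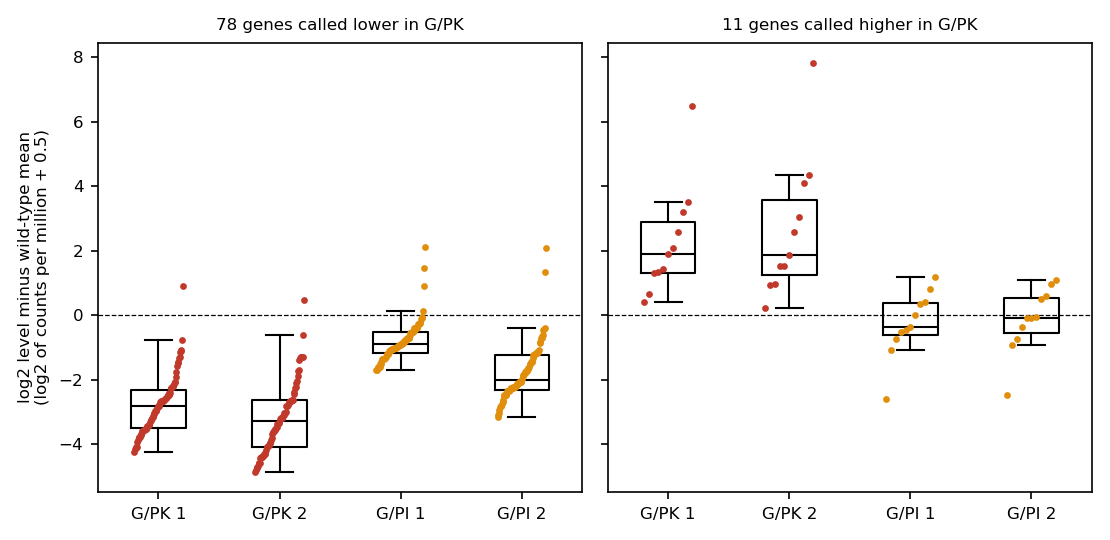
Log2 level of each gene called in G/PK against G/PI, minus its wild-type mean, in the 4 emerin libraries, with boxes for the median and quartiles. For the 78 lower genes the medians are -2.81 and -3.26 in G/PK and -0.90 and -2.0 in G/PI, and the 11 higher genes stand above wild type mainly in G/PK.

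Some of the lower genes also differed between the reference strains. dhd, Cyp6a19, mtrm, exu, rpk, gnu, Mos, pgc, smg and olf186-M were lower in CS than in yw. Their log2 fold changes of CS over yw ran from -1.737 (dhd) to -0.64 (smg), with adjusted p at most 0.04685 by edgeR. osk, alphaTub67C, yin and CG31262 did not pass that test (adjusted p = 0.2737, 0.1558, 0.09663 and 0.05348). The part of strain background in the difference between G/PK and G/PI was not tested. Fuca, an alpha-fucosidase gene, was at 10.6 and 7.65 CPM in G/PK, against 25.0 and 24.6 CPM in G/PI. Its call (adjusted p = 0.0468 by edgeR) was lost under 23 of 32 alternative settings. Fuca lay at 0.587 to 0.854 CPM in chk2 emerin, 1.03 to 1.98 CPM in CS and 21.9 to 35.0 CPM in yw. sosie was at 0.199 and 0.21 CPM in G/PK, against 13.0 and 2.49 CPM in G/PI, and differed between CS (0.534 to 0.796 CPM) and yw (29.0 to 39.0 CPM). CR43211, CR43213 and CR43216, 3 neighbouring noncoding genes on the X chromosome, had identical counts of 1 and 0 in G/PK, against 45 and 17 in G/PI. Their reads could not be told apart, so they count as 1 observation. They were at 0 in all 3 chk2 emerin libraries and at 1.94 to 3.50 CPM in wild type. Of all 89 genes, 36 also differed between CS and yw (background 12.4%), 31 of the 78 lower, all with lower levels in CS than in yw (background 6.06%), and 5 of the 11 higher, all with higher levels in CS (background 6.37%). slbo, a transcription factor of border cells, had 0 and 1 counts in G/PK, against 27 and 32 in G/PI, a ratio of 0.0189 (95% exact interval 0.000472 to 0.11, counting error only). Of the 23 niche and follicle cell genes it was the only one that passed the test by edgeR or DESeq2 (4.35%, background 0.697%), and 13 of the 23 lay without overlap on the higher side in G/PK (background 19.2%). The median log2 fold change was 0.26, or 0.12 without G/PI replicate 1 and 0.42 without G/PI replicate 2. slbo was not called without G/PI replicate 1 (adjusted p = 0.194).

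The 11 higher genes were fewer and of several kinds. bgcn, which with bam is needed for germ cells to leave the stem cell state, was at 20.8 and 21.0 CPM in G/PK, against 5.83 and 6.53 CPM in G/PI (log2 fold change 1.76, SE 0.32, adjusted p = 0.0178). The libraries of each genotype lay close together, and the groups did not overlap. bgcn was at 2.20 to 3.29 CPM in chk2 emerin, 3.50 to 5.12 CPM in CS and 1.65 to 2.54 CPM in yw. The reference strains themselves differed in this gene (adjusted p = 0.0133 by edgeR). Against the mean of CS and yw it was higher in both emerin groups (log2 fold change 2.84 in G/PK and 1.08 in G/PI). Without G/PI replicate 1 its value was 1.67 and did not pass the test (adjusted p = 0.322).

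Genes of chromosome pairing and cohesion in early meiosis were examined next, and those described here did not pass the test by edgeR. corolla, a central element of the synaptonemal complex, was at 28.1 and 24.6 CPM in G/PK, against 10.3 and 9.23 CPM in G/PI (log2 fold change 1.43, adjusted p = 0.0544). ord, a cohesion factor of meiotic chromosomes, was at 14.8 and 15.9 CPM in G/PK, against 5.25 and 7.05 CPM in G/PI (log2 fold change 1.32, adjusted p = 0.0998). cona, another synaptonemal complex gene, and sunn, another cohesion gene, had log2 fold changes of 1.20 and 1.13 (adjusted p = 0.157 and 0.105). Of the 24 meiosis genes tested, mtrm, which was lower in G/PK, was the only one that passed the test by edgeR (4.17%, background 0.697%). At an unadjusted p under 0.05, 3 of the 24 had lower levels in G/PK (background 6.42%) and 8 had higher levels (33.3%, background 2.77%). These 8 genes (ord, cona, corolla, mei-218, rec, narya, solo and sunn) had log2 fold changes of 0.52 to 1.43, and of 0.36 to 1.77 without G/PI replicate 1. By DESeq2, 5 of them were called higher (cona, corolla, ord, rec and sunn). Over the whole list 13 of the 24 fold changes were negative, and the median was -0.01, or 0.21 without G/PI replicate 1.

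**Figure D4:**
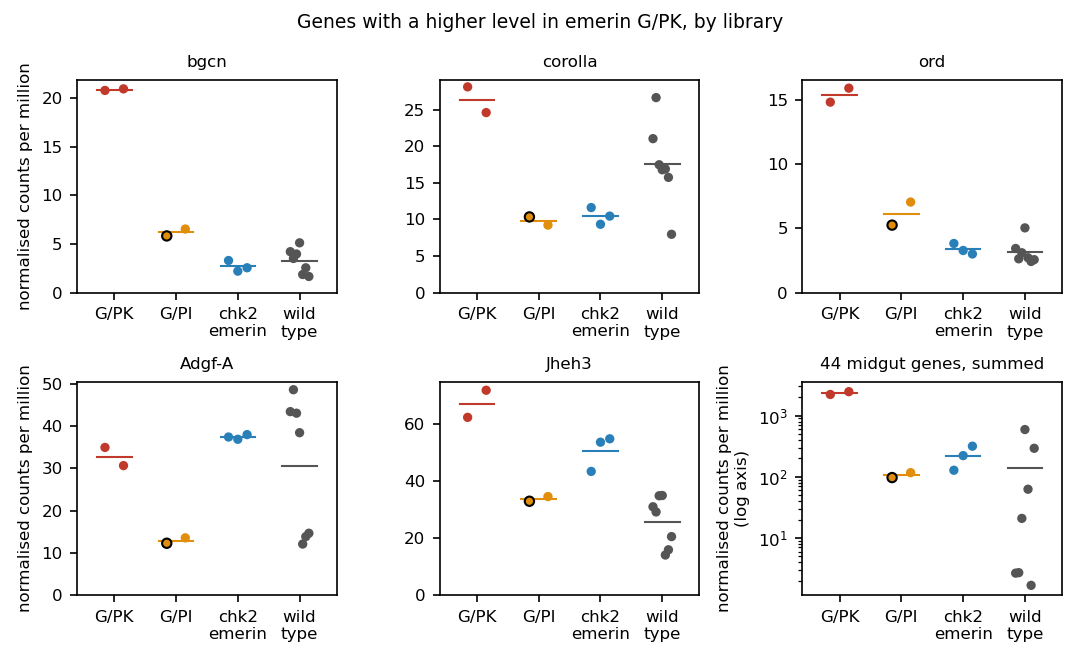
CPM by library for bgcn, corolla, ord, Adgf-A and Jheh3, and for the sum of 44 midgut genes (log axis), with group means as lines. corolla and ord did not pass the test by edgeR. The 2 G/PK libraries lie above both G/PI libraries in each panel, and the wild-type libraries of Adgf-A fall into CS (left) and yw (right).

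Genes of digestive enzymes were measured as markers of midgut tissue. The summed level of 44 midgut genes was 2212 and 2458 CPM in G/PK, against 97.0 and 117 CPM in G/PI, 128 to 316 CPM in chk2 emerin and 1.68 to 592 CPM in wild type. Of the 44 genes, 24 did not overlap on the higher side (54.5%, background 19.2%), but 3 passed the test (6.82% higher, background 0.0862%), none of them without G/PI replicate 1, and 15 were at or below 1 CPM in all 4 libraries. The median log2 fold change was 2.90, or 3.18 with genes of at most 3 counts in a group set to that floor and those with at most 3 counts in both left out, and 2.51 without G/PI replicate 1. CG18179, a serine protease gene, had 139 and 201 counts in G/PK and 0 in both G/PI libraries (adjusted p = 0.00605 by edgeR). The ratio was 127 with G/PI set to a floor of 3 counts over the group. The lower limit of its 95% exact interval was 102 (counting error only). Its neighbour CG18180 was at 62.8 and 158 CPM in G/PK, against 1.10 and 0.985 CPM in G/PI (log2 fold change 6.72, SE 1.28, adjusted p = 0.0226). gammaTry, a trypsin gene, had 89 and 200 counts in G/PK, against 1 and 0 in G/PI, a ratio of 323 (95% exact interval 57.5 to 12800). Mal-A1, a maltase gene, was at 808 and 581 CPM in G/PK, against 29.7 and 2.33 CPM in G/PI and did not pass the test (adjusted p = 0.64). Trypsins and maltases are families of similar genes, and their reads may be split among copies. The part of gut tissue carried over in dissection was not tested.

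The other higher genes were of different kinds. Adgf-A, a secreted adenosine deaminase, had the smallest adjusted p among them. It was at 35.0 and 30.6 CPM in G/PK, against 12.3 and 13.5 CPM in G/PI (log2 fold change 1.35, SE 0.15, adjusted p = 0.00237), and 1.28 without G/PI replicate 1 (adjusted p = 0.0235). It lay at 36.9 to 38.0 CPM in chk2 emerin and 38.4 to 48.6 CPM in CS, but at 12.1 to 14.6 CPM in yw. Jheh3, a juvenile hormone epoxide hydrolase gene located within 1 Mb of Ote, was at 62.5 and 72.0 CPM in G/PK, against 33.0 and 34.6 CPM in G/PI (log2 fold change 0.99, adjusted p = 0.0147). With mtsh, these were the 3 higher genes whose chk2 emerin level was nearer to G/PK. mthl8, a G protein-coupled receptor gene, had 87 and 102 counts in G/PK, against 0 and 1 in G/PI, and was at 0 in chk2 emerin, 9.29 to 14.4 CPM in CS and 0 to 0.041 CPM in yw. eag, a potassium channel gene, CG13540 and CG32483 had log2 fold changes of 2.05, 1.59 and 4.54 (adjusted p = 0.0496, 0.0496 and 0.0363 by edgeR). Their calls were lost under 24, 25 and 16 of 32 alternative settings.

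Components of the lamina and of the pathways named in the study were compared next, and apart from Ote none of those that follow passed the test. Of 11 lamina and nuclear envelope genes Ote was the only one called. bocks, which encodes the other fly emerin, was at 28.1 and 29.8 CPM in G/PK, against 32.0 and 31.2 CPM in G/PI. MAN1, baf, Lam and LamC had log2 fold changes of -0.44, 0.06, 0.09 and -0.24. lok, the Chk2 gene, was at 61.4 and 55.2 CPM in G/PK, against 121 and 62.7 CPM in G/PI (log2 fold change -0.65, adjusted p = 0.315), and at 14.3 to 16.0 CPM in the chk2 emerin libraries. Jra and kay, the subunits of AP-1, and CHKov1 had log2 fold changes of 0.17, 0.12 and 0.61, and Rbp9, a regulator of germ cell differentiation, of 0.15. Each of these 4 genes was higher than wild type in both G/PK and G/PI. w was at 16.1 and 1.99 CPM in G/PK, against 28.8 and 70.8 CPM in G/PI (adjusted p = 0.104), with the G/PK libraries far apart from each other. It lay at 14.97 to 22.83 CPM in CS and 1.231 to 1.806 CPM in yw. G/PK replicate 1 was thus within the CS range and G/PK replicate 2 just above the yw range. Against the mean of CS and yw, the log2 fold change of w was 0.792 in G/PK and 3.245 in G/PI (adjusted p = 0.1875 and 3.315e-05 by edgeR). Whether the emerin libraries share 1 genetic background was not tested. y was at or below 1.09 CPM in all 4 libraries.

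The remaining lists held few or no genes that passed the test. Of 91 cytosolic ribosomal protein genes, RpS5b was the only one by edgeR (1.10%, background 0.697%), DESeq2 also called RpS19b, higher in G/PK, and 72 lay without overlap on the lower side in G/PK (79.1%, background 22%), with a median log2 fold change of -0.21 that stayed at -0.13 without G/PI replicate 1 and when libraries were scaled by size alone. For 73 mitochondrial ribosomal protein genes the median was -0.17, with 0 called by edgeR or DESeq2 and 4 lower at an unadjusted p under 0.05. For 33 tRNA synthetases, with 0 genes called or at an unadjusted p under 0.05, it was -0.22, and 0.03 without G/PI replicate 1. Of 25 piRNA pathway genes 0 were called by edgeR or DESeq2, with 4 lower and 3 higher at an unadjusted p under 0.05, and aub had the smallest p (42.3 and 39.1 CPM in G/PK, against 110 and 44.1 CPM in G/PI). No gene passed the test among the lists for muscle sheath (28), fat body (17), hemocytes (16), Toll and Imd signalling (33), JNK and AP-1 (16), apoptosis (14), checkpoint and p53 (14), heat shock (21), DNA replication (34), antimicrobial peptides (30), Hox genes (7), ecdysone synthesis and response (20), UDP-glycosyltransferases (33), cuticle proteins (79) or the mitochondrial genome (14), by edgeR. Each of these lists had at most 2 higher and 4 lower genes at an unadjusted p under 0.05, and DESeq2 called 1 gene among them, the ecdysone synthesis gene sad. Of 22 yolk and eggshell genes 0 were called by either tool, with 2 lower at an unadjusted p under 0.05, and the median of -1.31 was -2.09 without G/PI replicate 1 and 0.82 without G/PI replicate 2. In 24 testis genes, of which 0 were called by edgeR and 1 (Dhc98D, higher) by DESeq2, the summed level was 21.1 and 17.0 CPM in G/PK, against 68.4 and 12.3 CPM in G/PI, and the median of -3.71, or -2.80 with low genes at the floor, was 0.45 without G/PI replicate 1. In the neuronal list, with 0 of 11 genes called by either tool or at an unadjusted p under 0.05, the sum of 1199 CPM in G/PI replicate 1 came mainly from Syt1 (720 CPM there, 14.98 to 20.55 CPM in the other 3 emerin libraries), which also reached 985 CPM in 1 CS and 788 CPM in 1 yw library.

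Genes defined in libraries of neither group were also followed. In germline knockdown of baf (2 baf GLKD libraries against 2 of its driver strain nosgal4), 1516 genes were lower (11.9%) and 2057 higher (16.1%). The labels give room temperature for nosgal4 and not for baf GLKD. A rearing difference and the knockdown therefore cannot be told apart in these lists. Of the genes lower in baf GLKD, 59 were lower in G/PK than in G/PI (3.89%, background 0.611%) and 0 were higher by edgeR (7 at an unadjusted p under 0.05, and 3 called by DESeq2), with a median log2 fold change of -0.25, against -0.04 for all genes. Their fold change was negative for 87.2%, against 54.8% of all genes. Without G/PI replicate 1 the median was -0.07, against 0.00 for all genes, and 6 of them were called. Of the genes higher in baf GLKD, 4 were higher (0.194%, background 0.0862%) and 1 lower in G/PK (0.0486%, background 0.611%). Their median of 0.10 was -0.03 without G/PI replicate 1 and 0.32 without G/PI replicate 2.

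Whether G/PI replicate 1 alone decided the results was examined by leaving out each emerin library. Without it, 8 of the 89 genes were still called (osk, rpk, Cyp6a19, CG5568, Adgf-A, sosie, CG31262 and yin), and no gene was added. The median log2 fold change over the 78 lower genes was -1.27 without it, against -1.97 with it. Over the 11 higher genes it was 1.70, against 2.05. Among the genes still called, rpk, Cyp6a19, CG5568, Adgf-A and sosie also differed between CS and yw, whereas osk, CG31262 and yin did not pass that test. A lost call means an adjusted p above the threshold, not an absent difference. With 1 G/PI library left, that library is assumed to vary like the other groups, which then give the spread. The same holds wherever a value without an emerin library is given. The groups did not overlap in any of the 89 genes, so leaving out a library could not turn a sign. The count fell further without G/PK replicate 2 than without G/PI replicate 1, although the median over the 78 lower genes was then -1.72. Without G/PK replicate 1, 44 of the 89 were called. Without G/PI replicate 2, when G/PI replicate 1 stood alone, 83 were still called and 220 others were added. In 77 of the 78 lower genes G/PI replicate 1 was above G/PI replicate 2, and in 70 the order from high to low was G/PI 1, G/PI 2, G/PK 1, G/PK 2.

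**Figure D5:**
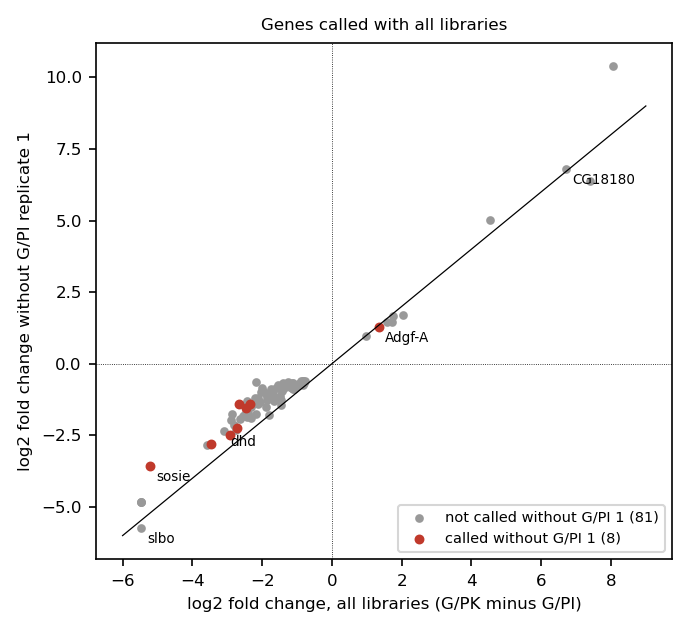
Log2 fold change of G/PK over G/PI with all libraries (x axis) and without G/PI replicate 1 (y axis) for 88 of the 89 genes called (CG18179, at 10.6, lies off the axes), with the line of equality. The 8 genes still called are red, and most lower genes lie above the line, nearer to 0.

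The genes called were spread over the chromosome arms. The share called was 1.06% on X, 0.456% on 2L, 0.767% on 2R, 0.947% on 3L and 0.42% on 3R, and 0 of 84 genes on chromosome 4 were called by edgeR (1 at an unadjusted p under 0.05). Within 1 Mb of Ote, 5 of 278 genes were called (1.80%, background 0.697%): Ote, olf186-M, CG10927 and Jabba were lower and Jheh3 was higher. That share counts Ote itself, the mutated gene on which the window is centred. The call of CG10927 (adjusted p = 0.0488 by edgeR) was lost under 27 of 32 alternative settings. olf186-M was at 17.5 and 15.6 CPM in G/PK, against 50.4 and 39.9 CPM in G/PI (adjusted p = 0.00461), and 0 of 210 genes were called by edgeR between 1 and 2 Mb (16 at an unadjusted p under 0.05).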

How the data were processed

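RNA was poly(A)-selected, sequenced as paired reads, trimmed with Trim Galore and quantified with kallisto 0.46.1 by the authors, who summed transcripts to genes with tximeta (BDGP6.32). Their gene table covers 14237 genes in 18 libraries with unscaled estimated counts, deposited as whole numbers. Transcript-level files, deposited beside it, give estimated counts together with TPM and lengths; their counts, summed per gene, were an alternative, and in 7 libraries they fell 7.4 to 18.9 times short of the gene-level total. The deposited TPM values were not tested. Antisense and overlapping genes could not be separated by strand, and symbols came from the BDGP6.54 annotation for 14194 genes.

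Counts were fitted in edgeR 4.0.16 (R 4.3.3) with TMM factors, 1 coefficient for each of 7 genotypes and glmQLFTest on G/PK minus G/PI. Genes with under 10 counts over all libraries were left out (1475), and p-values were adjusted by Benjamini-Hochberg over 12762 genes. CPM are normalised by TMM. Wild type is the mean of CS and yw. Levels relative to wild type used log2(CPM + 0.5). DESeq2 1.42.0 was an alternative. The fit was tested on simulated data.

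Named genes were Ote, other lamina genes, genes named in the study, the 10 highest and 10 lowest called genes with at least 100 normalised counts and no overlap, the 3 smallest adjusted p in each direction and the 3 smallest in each list; genes outside this rule were named after their values were seen. The members and lists were chosen with earlier results of these data known. Intervals cover counting error only. 3 list symbols were not found.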

Additional observations from a re-analysis of the deposited data

Results flagged for a closer look

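In 3 genes the fold changes against wild type were called in opposite directions in the 2 emerin groups. Adgf-A was 0.44 in G/PK and -0.91 in G/PI on the log2 scale (adjusted p = 0.00554 and 5.31e-05), a difference of 1.35, and CS and yw themselves differ in this gene. CG18179 was 5.79 in G/PK and -4.84 in G/PI, a difference of 10.63, and slbo was -3.63 in G/PK and 1.85 in G/PI, a difference of -5.47. Both fitted values rest on groups with 0 to 1 counts and are no bound.

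Among 76 genes examined in the 4 CS libraries, 6 had a library far from the other 3, where chance gives about 1 in 20. osk was 1540 CPM in CS replicate 1 (others 1376 to 1396), Syt1 985 CPM in CS replicate 1 (others 4.62 to 25.0) and Fuca 1.98 CPM in CS replicate 3 (others 1.03 to 1.16). RpS5b was 1359 CPM in CS replicate 4 (others 1777 to 1836), Mal-A1 214 CPM in CS replicate 4 (others 0.159 to 1.98) and alphaTry 64.1 CPM in CS replicate 4 (others 0 to 1.32).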

How the results depend on the processing

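The count of 11 higher and 78 lower genes depended on the tool and on how the spread was estimated. DESeq2 called 48 higher and 191 lower genes and all 89 were among them. With only the 4 emerin libraries 2 were higher and 0 lower (568 and 488 at an unadjusted p under 0.05). With CS and yw as 1 group the counts were 1 and 25, with a term for the library set 8 and 47, with the second library set only 0 and 3, from transcript counts 7 higher and 53 lower, and at an adjusted p under 0.01 2 and 26. Scaling by library size alone gave 14 and 62, and the other normalisations and filters 9 to 15 and 77 to 96. Leaving out each emerin library in turn gave 1 to 25 higher and 0 to 278 lower genes (234 and 326 at an unadjusted p under 0.05 without G/PK replicate 2), and leaving out each of the 14 other libraries gave 6 to 14 and 58 to 87.

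Among all genes lower in baf GLKD, 59 were lower in G/PK; under the alternatives this count was 124 by DESeq2, 0 with the 4 emerin libraries only, 19 with CS and yw as 1 group, 32 with the library set term, 3 in the second library set only, 18 at an adjusted p under 0.01 and 35 with the baf GLKD list at 0.01. It was 0 to 199 when emerin libraries were left out. When emerin libraries were left out, the log2 fold change was -0.095 to 0.236 for baf, -0.024 to 0.273 for kay and -0.037 to 0.228 for Lam, with baf and kay at -0.095 and -0.024 also in the second library set only. None of these was called.

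With the replicate number as a block, 13 genes were higher and 64 lower, 44 of them on the baf GLKD list. The labels do not pair the libraries, and the deviations of G/PK 1 and G/PI 1 correlated at 0.29 over 5000 genes, so the block is no part of the main result. The cause of these shifts was not tested.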
